A study of Homo sapiens with 7 samples.

Results

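SRRM2, SON and SRRM1 encode 3 large proteins of nuclear speckles, and the N6-methyladenosine (m6A) peaks of their transcripts are described here. The cells were HEK-293T, a line derived from human embryonic kidney. They are 3 of the 13566 Ensembl gene IDs that had a peak in any of 4 deposited lists, and they held 77 of the 59659 peaks in these lists. SRRM2 held 43, SON 28 and SRRM1 6. The genes were chosen by the peak scores and peak numbers of SRRM2, which was already known to be among the best-scored genes shared by the methods, and by their common role. Their peak numbers and scores are therefore descriptions and were not tested. Every peak carried the Ensembl ID of its gene and also lay in the RefSeq span of that gene on the plus strand, and no minus-strand peak lay in any of the 3 spans.

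The lists came from 4 captured RNA libraries. In m6A-ORL, fragmented RNA went through steps with NO/O2, TDO and the probe BA that left it biotinylated, streptavidin beads captured it, and DTT freed it again. Replicate 1 of m6A-ORL is labelled total RNA and replicate 2 polyA RNA, so RNA type and replicate cannot be told apart within the method. In MeRIP, fragments were captured with an antibody against m6A, and both replicates are labelled polyA RNA. No drug, genotype or time point separates the groups, the labels do not say whether replicates were separate cultures, and 3 input samples were not analysed here.

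Nuclear speckles are bodies between the chromosomes that are rich in splicing factors. SON and SRRM2 are known as the proteins on which speckles assemble, and both carry long disordered regions with serine-arginine repeats. SRRM1 (also called SRm160) is a splicing coactivator that acts together with SRRM2 (SRm300). SON and SRRM2 are each known for a very long internal exon that encodes much of the protein. Long internal exons, like the region around the stop codon, are known places of m6A, which is commonly found in the sequence GGAC and its relatives.

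SRRM2 (ENSG00000167978; hg38 chromosome 16, 2752638 to 2771412, plus strand) had 12 peaks in m6A-ORL replicate 1 and 13 in replicate 2, against 10 and 8 in MeRIP replicates 1 and 2. Both m6A-ORL lists held more of its peaks than either MeRIP list, with no overlap between the methods, in peak number (as in 3.52% of the 13566 genes) and in covered bases (3.78%). The means were 12.5 ± 0.707 peaks by m6A-ORL and 9 ± 1.41 by MeRIP (SD, n = 2 each). Its peaks covered 3518 and 3877 nt by m6A-ORL, against 2708 and 2256 nt by MeRIP. Among the 7661 best-scored peaks of each list, the length of the shortest list, SRRM2 kept 10 and 13 peaks by m6A-ORL, against 2 and 2 by MeRIP. That cut left the list of m6A-ORL replicate 2 whole and shortened the MeRIP lists from 20760 and 20216 peaks. It also used the score, by which SRRM2 was chosen, and has no share over all genes beside it, so nothing is read from the wider gap. Within each list SRRM2 stood high by peak number, at rank 3 of the 7203 genes of m6A-ORL replicate 1 and rank 3 of the 4495 genes of replicate 2, and at ranks 26 of 9791 and 64 of 9638 genes in the MeRIP lists.

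SON (ENSG00000159140; chromosome 21, 33543038 to 33577481, plus strand) had 8 and 5 m6A-ORL peaks, against 8 and 7 MeRIP peaks. Here the methods overlapped, with means of 6.5 ± 2.12 by m6A-ORL and 7.5 ± 0.707 by MeRIP (SD, n = 2 each). The m6A-ORL minus MeRIP difference was -1 peak, and 0.5 without m6A-ORL replicate 2. In covered bases the polyA m6A-ORL library stood apart. SON peaks covered 3808 nt in m6A-ORL replicate 1 (total RNA) and 724 nt in replicate 2 (polyA RNA), against 3483 and 3361 nt by MeRIP. SON was at rank 2 of 7203 genes by covered bases in the total RNA library and at rank 314 of 4495 in the polyA m6A-ORL library.

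SRRM1 (ENSG00000133226; chromosome 1, 24643302 to 24673281, plus strand) had few peaks. It had 1 and 4 by m6A-ORL, against 1 and 0 by MeRIP, and the polyA m6A-ORL library alone held 4 of the 6. These covered 91 and 902 nt by m6A-ORL, against 300 and 0 nt by MeRIP. SRRM2 and SON had a peak in all 4 lists, as did 15.8% of the 13566 genes, and SRRM1 had a peak in both m6A-ORL lists, as did 19.3%, but not in both MeRIP lists, as did 65.9%. Since SRRM2 was picked for its peaks, and the genes were chosen with earlier results of these data known, nothing is read from these shares. Transcript levels were not measured here, so a gene with more peaks and a gene with more RNA cannot be told apart.

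**Figure D1:**
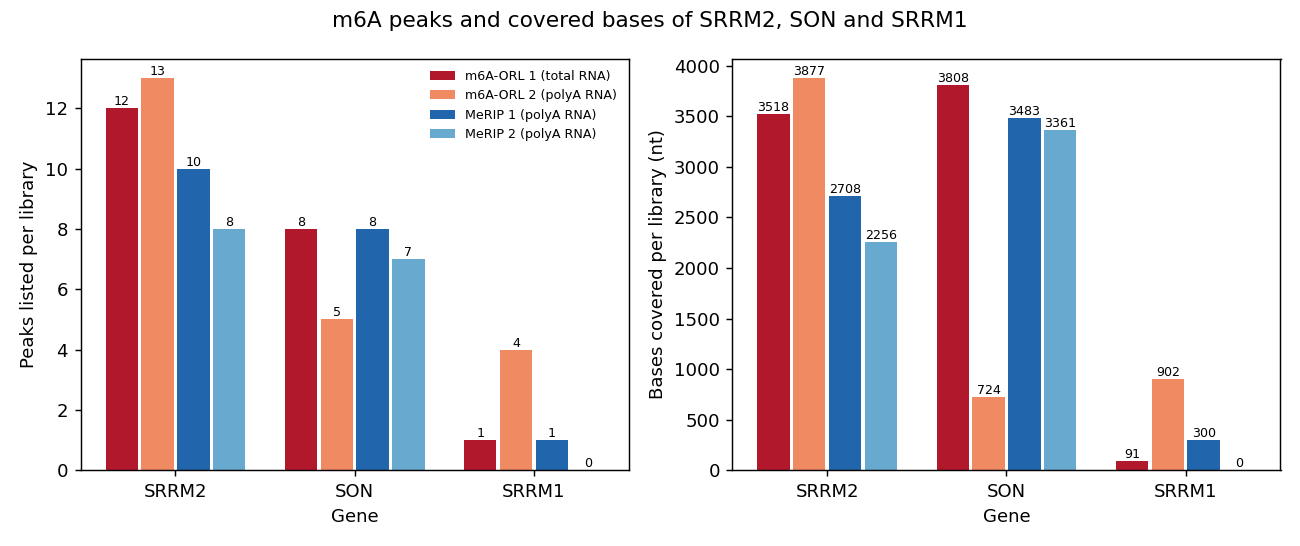
Number of peaks (left) and bases covered by peaks in nt (right) for SRRM2, SON and SRRM1, with 1 bar per library and no error bars because each bar is a single library. For SRRM2 the m6A-ORL bars (12 and 13 peaks) stand above the MeRIP bars (10 and 8), and for SON the polyA m6A-ORL bar is low in covered bases (724 nt).

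At the 5' end, SRRM2 had a peak in 3 of the 4 lists and SON in 1. The polyA m6A-ORL library had a 91 nt peak in SRRM2 that began 108 nt after the RefSeq start, against a 301 nt peak in each MeRIP list that began 12 nt before that start and crossed a splice junction. The bounds of this MeRIP peak were identical in both lists, and it joined a first block of 229 nt to a block of 72 nt on the far side of a 588 nt gap. The total RNA m6A-ORL library had no SRRM2 peak in the first 9020 nt of the gene. In SON, the polyA m6A-ORL library had a 91 nt peak that began exactly at the RefSeq start and that overlapped no peak in the other 3 lists.

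The sequences around these starts are shown because the SRRM2 and SON peaks open there. They run from 30 bases before the RefSeq start to the 30th transcribed base, 5' to 3' on the plus strand (RefSeq, GRCh38.p14), and capitals mark the bases inside the MeRIP peak of SRRM2 and inside the polyA m6A-ORL peak of SON.
SRRM2, chr16:2752608-2752667: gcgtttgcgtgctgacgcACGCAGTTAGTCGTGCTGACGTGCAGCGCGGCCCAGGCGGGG
SON, chr21:33543008-33543067: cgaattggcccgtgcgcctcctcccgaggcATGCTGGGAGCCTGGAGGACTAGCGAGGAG
The letters GGAC were searched on the transcribed strand in the first 50 transcribed bases. SON held them once, from base 17, followed by T, and SRRM2 did not hold them. Of 35116 RefSeq start windows of the same length, 18.9% held GGAC and 4.90% held GGACT, so the match is a description and not a site. The SRRM2 peaks by MeRIP reach well beyond this window, and the rest of their sequence was not analysed here.

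In every library most SRRM2 bases under peaks lay between 9020 and 15255 nt after the gene's start, along a span of 18775 nt. The bounds of peaks in all 4 lists fell at steps of just under 30 nt, and the longest run of peak starts on a single grid was read as an uninterrupted stretch of the gene model used for peak calling, because no exon annotation was used here. In SRRM2 this stretch ran from 2761658 to 2767893 (6236 nt, 33.2% of the genomic span). Its 21 distinct peak starts lay within 0.42 nt of a grid of 29.98 nt, and the next start on either side lay 5.14 and 3.17 nt off it. The run was extended as far as starts kept to a single grid, so off-grid neighbours are built in. A start counted as on a grid when it lay within 0.75 nt of it. Of the 15 starts outside the run, the closest to the grid was 0.65 nt off, within that tolerance, and the median was 3.46 nt. The bounds of the stretch are those of peaks, not of an annotated exon.

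This stretch held 10 of 12 and 6 of 13 SRRM2 peaks by m6A-ORL, against 5 of 10 and 3 of 8 by MeRIP. Their bases filled 52.5% and 38.1% of it by m6A-ORL, against 23.6% and 18.8% by MeRIP. As a share of all SRRM2 bases under peaks, the stretch held 93.1% and 61.2% by m6A-ORL, against 54.4% and 51.9% by MeRIP. The stretch was drawn from the starts and ends of these same peaks. A high share is therefore partly built in, and these shares and fills are descriptions only. Bounds taken from blocks of junction-spanning peaks were wider, 2759569 to 2770717 (11149 nt, 59.4% of the genomic span). They held 12 of 12 and 11 of 13 peaks by m6A-ORL, against 9 of 10 and 7 of 8 by MeRIP. The upstream bound of that wider stretch rests on a single peak whose blocks are 20 nt apart.

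The best-scored SRRM2 peaks differed in place between libraries. The score, by its values a p or q value from the authors' peak caller, ranks peaks only within a list. In m6A-ORL replicate 1 the best was a 600 nt peak from 2763577 to 2764176 (score 1.6e-34, rank 387 of 11022). In m6A-ORL replicate 2 it was the longest SRRM2 peak of all, 1290 nt from 2765525 to 2766814 (score 1.6e-50, rank 40 of 7661). In both MeRIP lists it was a 930 nt peak with the same bounds, 2766934 to 2767863, and a listed score of 0. By m6A-ORL the place of that MeRIP peak was covered by a 1110 nt peak in replicate 1 (2766784 to 2767893, score 6.3e-27) and by 2 peaks of 451 and 210 nt in replicate 2.

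**Figure D2:**
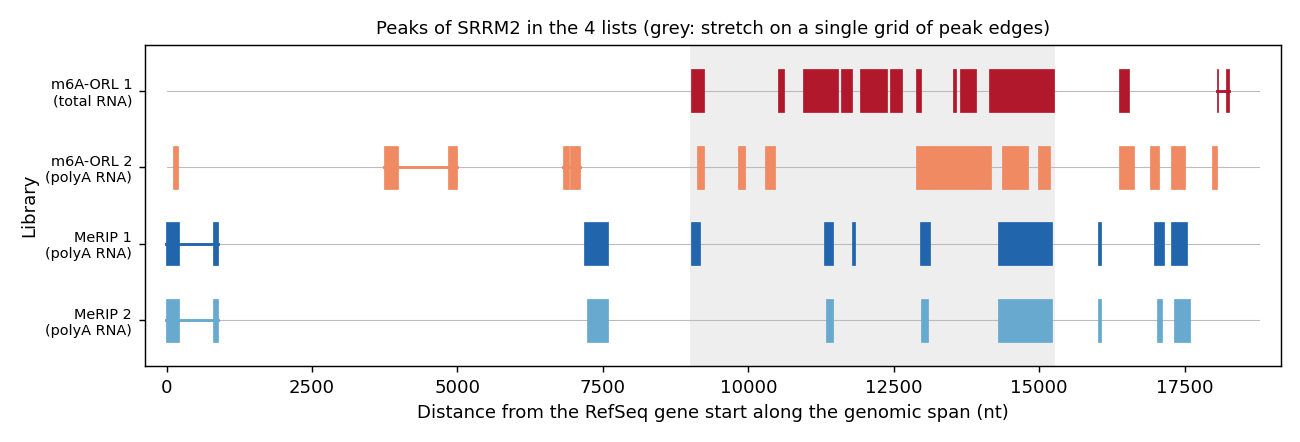
Peaks of SRRM2 in each library, from the m6A-ORL libraries at the top to the MeRIP libraries at the bottom, against the distance in nt from the RefSeq gene start along the genomic span. Boxes are peak blocks, lines join blocks of the same peak, and grey marks the 6236 nt stretch, which holds 10 of the 12 peaks of m6A-ORL replicate 1 and 3 of the 8 of MeRIP replicate 2.

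Outside the stretch, the SRRM2 libraries parted. Upstream of it, the polyA m6A-ORL library alone had a peak of 390 nt from 2756382 to 2757636, in blocks of 225 and 165 nt, and a peak of 270 nt from 2759456 to 2759745. The MeRIP libraries alone had a peak of 421 and 361 nt that began at 2759805 in replicate 1 and 2759865 in replicate 2. Downstream, both m6A-ORL libraries had a peak that began at 2769006 (181 and 270 nt), where neither MeRIP list had one. Both MeRIP lists had a 61 nt peak at 2768646 that no m6A-ORL list held. Farther along, from 2769545 to 2770235, the polyA m6A-ORL library had 2 peaks and each MeRIP library 2, whereas the total RNA library had none. Near the 3' end a peak of the polyA m6A-ORL library (2770613 to 2770702) and a peak of the total RNA library (2770702 to 2770902) touched at a single base, and no MeRIP peak lay there.

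In each library most SON peaks lay in a single stretch, which was drawn from these same peaks, so its shares and fills are descriptions only. The single-grid stretch ran from 33549663 to 33555202 (5540 nt, 16.1% of the span), with 20 distinct starts within 0.47 nt of a grid of 29.94 nt, while the next start on either side lay 8.41 and 13.25 nt off it. It held 7 of 8 and 3 of 5 SON peaks by m6A-ORL, against 7 of 8 and 6 of 7 by MeRIP. Their bases filled 64.9% of the stretch in the total RNA library and 8.16% in the polyA m6A-ORL library, against 59.1% and 56.9% by MeRIP. The total RNA library therefore lay just above the MeRIP libraries, and the polyA m6A-ORL library far below all 3.

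Within that stretch the MeRIP libraries had 1 very long peak, 1379 nt in replicate 1 and 1438 nt in replicate 2, at ranks 322 of 20760 and 311 of 20216. The same region met 3 peaks in m6A-ORL replicate 1, of which the longest was 779 nt and the best-scored of SON in that list (score 1.3e-99, rank 161 of 11022), and 2 peaks of 181 and 210 nt in m6A-ORL replicate 2. The best-scored SON peak by MeRIP lay upstream of it, at the start of the stretch (33549663 to 33549993 in replicate 1, 33549693 to 33549993 in replicate 2, listed score 0 in both), where the total RNA library had a 300 nt peak and the polyA m6A-ORL library none. The best SON peak of the polyA m6A-ORL library, 210 nt from 33551430 to 33551639, had a score of 1.8e-08 and rank 1318 of 7661.

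A final SON peak, downstream of the stretch, was in all 4 lists. It was 211 and 181 nt wide by m6A-ORL, against 211 nt in each MeRIP list, where its bounds were identical (33557614 to 33557824). After it no list held a SON peak in the remaining 19627 nt of the genomic span, which includes the whole of its second 50%. Over named protein-coding genes the final 10% of the span held 36.0% and 28.6% of peaks by m6A-ORL, against 37.8% and 37.6% by MeRIP. In SRRM2 the final 10% (1877 nt) held 1 of 12 and 3 of 13 peaks by m6A-ORL, against 2 of 10 and 2 of 8 by MeRIP. These positions are along the genomic span, introns included.

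**Figure D3:**
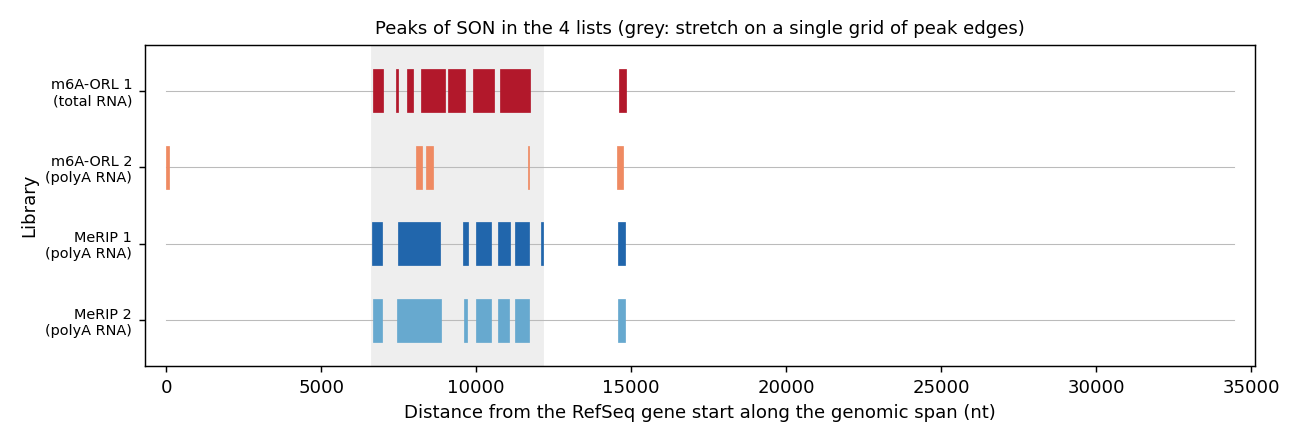
Peaks of SON in each library against the distance in nt from the RefSeq gene start along the genomic span, with the m6A-ORL libraries above the MeRIP libraries. Grey marks the 5540 nt stretch; its fill is 64.9% in m6A-ORL replicate 1, 8.16% in m6A-ORL replicate 2, and 59.1% and 56.9% in the MeRIP libraries, and the last 19627 nt hold no peak.

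SRRM1 peaks were mostly small and crossed splice junctions. Of its 6 peaks, 4 had 2 blocks, all by m6A-ORL, against 5 of 43 in SRRM2 and 0 of 28 in SON. Both m6A-ORL libraries had a peak across the same 2197 nt gap, between 24666925 and 24669123. In replicate 1 it covered 91 nt with a score of 0.00045 (rank 9034 of 11022). In replicate 2 it covered 569 nt, in blocks of 158 and 411 nt, with a score of 5e-41 (rank 55 of 7661). The MeRIP replicate 1 peak of 300 nt (24669234 to 24669533, score 1.9e-06, rank 12575 of 20760) lay wholly in the second block of the replicate 2 peak and ended at the same base. The other 3 SRRM1 peaks, at 24649987, 24652515 and 24671589, were held by the polyA m6A-ORL library alone. Junction-spanning peaks made up 9.88% and 27.8% of the whole m6A-ORL lists, against 16.9% and 16.3% of the MeRIP lists, the highest share being that of the polyA m6A-ORL list.

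**Figure D4:**
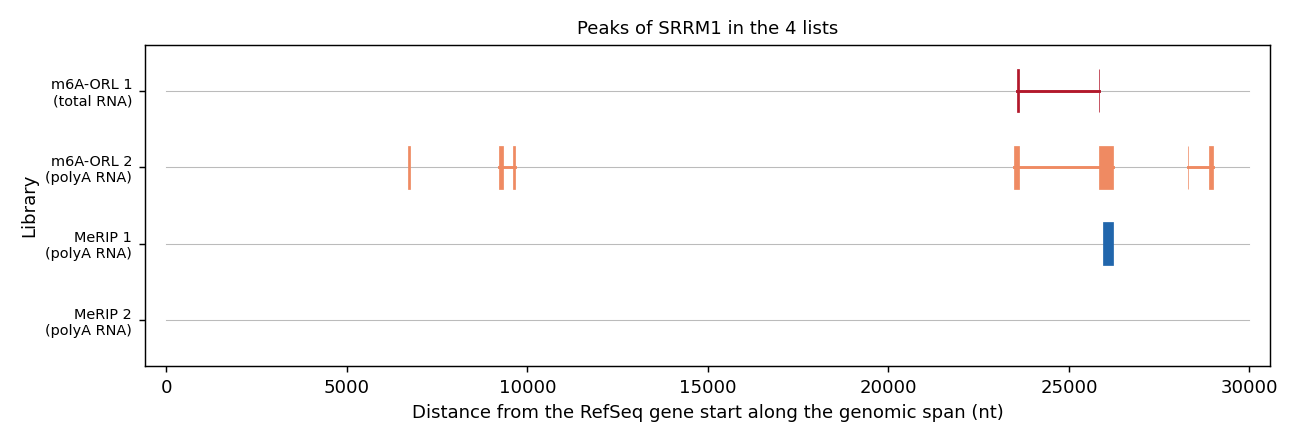
Peaks of SRRM1 in each library against the distance in nt from the RefSeq gene start along the genomic span, m6A-ORL above MeRIP. Lines join blocks of the same peak; 4 of the 6 peaks are in m6A-ORL replicate 2, and MeRIP replicate 2 has none.

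The share of m6A-ORL peaks met by MeRIP was 80.0% to 100% in SON and 41.7% to 53.8% in SRRM2. Of SON peaks by m6A-ORL, 8 of 8 in replicate 1 (100%, exact Clopper-Pearson 95% interval 63.1 to 100) and 4 of 5 in replicate 2 (80.0%, 28.4 to 99.5) overlapped a peak in either MeRIP list by at least 1 nt. Over the whole lists 54.7% and 47.8% did so. Of SRRM2 peaks by m6A-ORL, 5 of 12 (41.7%, 15.2 to 72.3) and 7 of 13 (53.8%, 25.1 to 80.8) did so. The mean SRRM2 share of 47.8% was 16.5% at equal list length and 31.4% when at least 50% of a peak had to be overlapped. The mean SON share of 90% was 90% and 83.8%. The cut to equal length left 2 SRRM2 peaks in each MeRIP list, against 7 and 6 SON peaks, and used the score by which SRRM2 was chosen. No whole-list overlap under these alternatives stands beside these values, so nothing is read from the lower SRRM2 shares. The intervals of SRRM2 include the whole-list shares, as does that of SON in replicate 2, and the difference between the genes was not tested. Peaks of a gene share their source, and the intervals cover counting error only.

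In the other direction, a peak in either m6A-ORL list overlapped 8 of 10 (80.0%, 44.4 to 97.5) and 6 of 8 (75.0%, 34.9 to 96.8) SRRM2 peaks of the MeRIP lists, against 33.5% and 33.0% of all MeRIP peaks. For SON these were 7 of 8 (87.5%, 47.3 to 99.7) and 7 of 7 (100%, 59.0 to 100). The SON share rested on the total RNA library, since the polyA m6A-ORL list alone overlapped 3 of 8 (37.5%) and 3 of 7 (42.9%). For SRRM2 the polyA m6A-ORL list alone overlapped 6 of 10 (60%) and 5 of 8 (62.5%). The total RNA list alone overlapped 5 of 10 (50%) and 3 of 8 (37.5%), so each list alone gave a lower share than both together. With both m6A-ORL lists, all 4 intervals lie above the whole-list shares, from which nothing is read, since SRRM2 was picked as a gene shared by the methods. The single SRRM1 peak by MeRIP was overlapped by m6A-ORL replicate 2, and of SRRM1 peaks by m6A-ORL 0 of 1 and 1 of 4 were overlapped by MeRIP. A count of 0 among 1 peak allows any share.

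Between replicates, MeRIP lists held nearly the same places. MeRIP replicate 2 overlapped 8 of 10 SRRM2 peaks of replicate 1, and all 8 of its own met replicate 1. For SON these were 7 of 8 and 7 of 7. Over the whole lists the shares were 83.6% and 86.0%. The m6A-ORL replicates, of different RNA types, met in 7 of 12 SRRM2 peaks of replicate 1 and 6 of 13 of replicate 2, and in 3 of 8 and 4 of 5 SON peaks. The whole-list shares were 13.8% and 19.6%. No m6A-ORL peak of these genes had the same bounds in both replicates, whereas 3 SRRM2 peaks and 3 SON peaks did so by MeRIP. A whole-list share of identical bounds does not stand beside these counts, so they are descriptions.

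Counted in bases, SRRM2 peaks covered 6910 nt in at least 1 list. Of these, 59.9% were covered by m6A-ORL alone, 13.5% by MeRIP alone and 26.6% by both methods. For SON the union was 4768 nt, and 25.7% were covered by m6A-ORL alone, 13.8% by MeRIP alone and 60.5% by both. Of m6A-ORL bases 23.7% in SRRM2 and 10.3% in SON were in both m6A-ORL lists, against 79.3% and 93.2% of MeRIP bases in both MeRIP lists. These base shares are descriptions, without a like share over all genes beside them.

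Bases in all 4 lists came to 662 nt in SRRM2 (9.58% of its union), 423 nt in SON (8.87%) and 0 in SRRM1. No like share over all genes stands beside these values, so whether they are low or high for a gene cannot be told. In SRRM2 they lay in 2 pieces of the best-scored MeRIP peak, 451 nt from 2766994 to 2767444 and 210 nt from 2767624 to 2767833, and at 1 further base. In SON they lay in 4 pieces, of which 210 nt from 33551430 to 33551639 was the longest and 121 nt, from 33557644 to 33557764, lay in the downstream peak. The other pieces were 31 nt from 33551250 and 61 nt from 33554693.

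Peak width was the only measure tested, because it had no part in choosing the genes. Over the 3 genes together the median width per library was 211 and 181 nt by m6A-ORL, against 271 and 301 nt by MeRIP. These pooled medians did not overlap between the methods, and the means were 196 ± 21.2 nt by m6A-ORL and 286 ± 21.2 nt by MeRIP (SD, n = 2 each). The difference of -90 nt had an exact two-sided permutation p of 0.33, the smallest that 3 splits of 4 libraries allow, so no difference could pass. The genes taken singly did not show this separation. SRRM2 medians were 195.5 and 210 nt by m6A-ORL, against 181 and 196 nt by MeRIP, and SON medians were 435 and 181 nt, against 360.5 and 360 nt. Over all peaks the medians were 142 and 149 nt by m6A-ORL, against 211 and 211 nt by MeRIP, and the pooled median of these genes lay above these values in every library, whereas the SRRM2 medians by MeRIP and the SRRM1 medians by m6A-ORL (91 and 136 nt) lay below them. Peaks over 400 nt numbered 3 and 2 in SRRM2 and 4 and 0 in SON by m6A-ORL, against 2 and 1 in SRRM2 and 3 and 3 in SON by MeRIP.

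Genes with a pattern like these were sought by the sum of absolute differences in peak number over the 4 libraries, among 10117 other named genes. The sum is not scaled to peak number, so a gene with many peaks tends to be far from others and a gene with few near many. By this sum no gene was close to SRRM2. The nearest, SETD1B, a histone methyltransferase gene, had 5 and 8 m6A-ORL peaks against 9 and 8 MeRIP peaks, a summed difference of 13. TSPYL1 (6 and 9, against 7 and 7) and KMT2D, another histone methyltransferase gene (12 and 12, against 17 and 14), were at 14. SON had 4 genes at a difference of 3, among them the noncoding RNA gene XIST, SEC16A, which acts at sites where cargo leaves the endoplasmic reticulum (7 and 3 by m6A-ORL, against 8 and 7 by MeRIP), and the receptor gene IGF1R (7 and 5, against 6 and 7). SRRM1, with few peaks, was at a difference of 1 from 19 genes. Of these, ERGIC1 (1 and 4 by m6A-ORL, against 0 and 0 by MeRIP), SAFB, which encodes a nuclear matrix protein (1 and 5, against 1 and 0), and MAP4K4, a kinase gene (0 and 4, against 1 and 0), were nearest in covered bases as well.

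A list of 50 other nuclear speckle and SR-related genes set these 3 genes beside their surroundings. It leaves out SRSF and HNRNP genes. A named peak in any list was found for 37 of the 50. Only 74.6% of gene IDs with a peak could be named by position, so the rest of the 50 may hold peaks without a name. Of the 37, 19 (51.4%) had a peak in both m6A-ORL lists, against 24.3% of 8614 named protein-coding genes with a peak, and 27 (73.0%) had one in both MeRIP lists, against 75.0%. In single libraries they were 29 and 24 by m6A-ORL (78.4% and 64.9%, against 53.6% and 40.5% of all), and 29 and 28 by MeRIP (78.4% and 75.7%, against 80.8% and 79.4%). The median gene of the list had 2 peaks by m6A-ORL and 3 by MeRIP, summed over both libraries of a method, where the median of all had 1 and 3. At equal list length (the 7661 best-scored peaks of each list) 11 of the 37 (29.7%, against 19.7% of all) met the criterion by m6A-ORL and 19 (51.4%, against 44% of all) by MeRIP, so the MeRIP share was then above that of all genes. With a peak in at least 1 library of a method sufficing, these were 34 (91.9%, against 69.8% of all) by m6A-ORL and 30 (81.1%, against 85.2% of all) by MeRIP. The list was chosen with earlier results of these data known, so its shares are descriptions only. These counts were not tested, and transcript levels, which could differ between the list and all genes, were not measured.

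At most 1 list gene reached the peak number of SRRM2 in any library. ZC3H18, a nuclear RNA-binding protein gene, had 1 and 1 peaks by m6A-ORL, against 10 and 8 by MeRIP, which are the MeRIP numbers of SRRM2. ACIN1, which encodes a subunit of a splicing-linked complex, had 3 and 3, against 7 and 6. SCAF1, an SR-related gene, had 5 and 5, against 4 and 4, and the kinase genes DYRK1A and CDK12 had 5 and 1, against 5 and 5, and 4 and 3, against 4 and 4. THRAP3, which encodes an SR-related transcription and splicing factor, had 3 in each of the 4 lists.

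Of the 37 list genes with a named peak, 14 had peaks in every library, 5 met the criterion by m6A-ORL alone and 13 by MeRIP alone. Over all 13566 gene IDs, a wider set than named protein-coding genes, 15.8% had a peak in all 4 lists. No like share of named protein-coding genes stands beside these counts, so nothing is read from them. Genes without any MeRIP peak included SF3A1, a subunit of the U2 snRNP (1 and 2 by m6A-ORL), and RSRC2 and the kinase gene CLK4 (1 and 1 each). Without any m6A-ORL peak were SRRM3, a relative of SRRM2 that acts in neuronal splicing (2 and 3 by MeRIP), RSRP1 (1 and 1) and CWC22 (2 and 1), a splicing factor that helps place the exon junction complex. SRRM4, the other neuronal relative, had no named peak in any list.

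**Figure D5:**
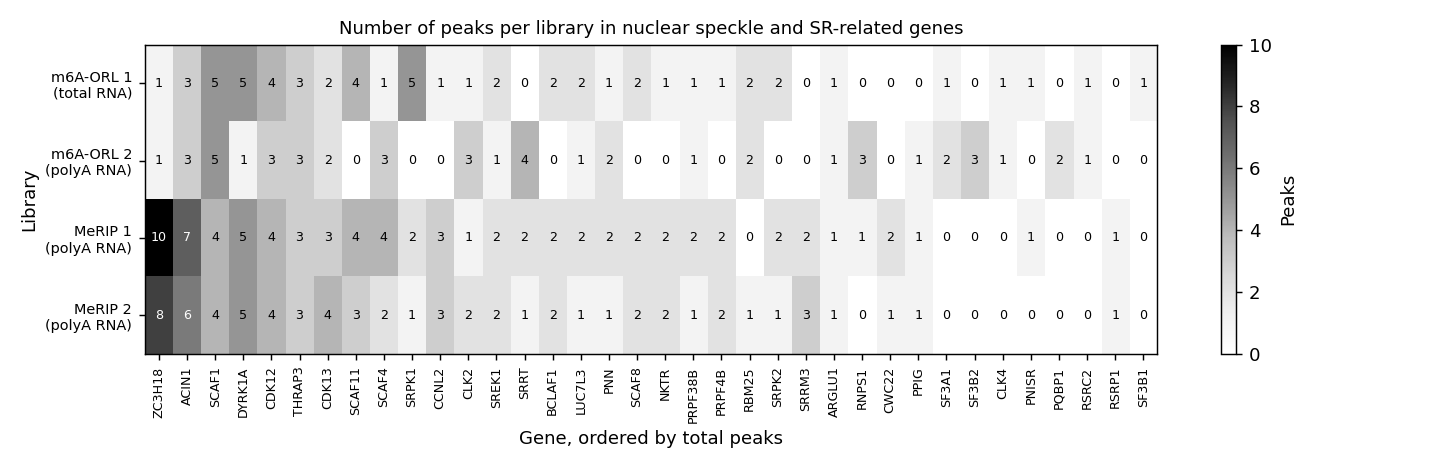
Number of peaks in each library (m6A-ORL in the upper rows, MeRIP in the lower rows) for 36 of the 37 nuclear speckle and SR-related genes with a named peak, ordered by total; darker tiles hold more peaks. ZC3H18 has 1 peak in each m6A-ORL library and 10 and 8 in the MeRIP libraries, and SF3A1, toward the right, has m6A-ORL peaks only.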

How the data were processed

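Each captured library has 1 deposited list of 12 BED columns, per the file headers: position, strand, blocks, an Ensembl ID and a score. The values of the authors' deposited score are those of a p-value or a q-value (which of these is not stated) and was used only to rank or filter within a list. Trim Galore, STAR, HOMER and hg38 are named in the submitters' processing notes without role. Peak caller, threshold and input library: not given in the sources used here. Read depth is unknown.

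Exact duplicate lines were removed (2 and 1 by m6A-ORL, 4 and 3 by MeRIP). Overlap means at least 1 nt of blocks on the same strand. Genes other than the members were named by position where at least 90% of peak bases lay in a single RefSeq span (GRCh38.p14) of the same strand, which named 10120 of 13566 IDs (74.6%); no ID matched by ID. Overlapping genes can make such a name wrong. Of the speckle list, PRPF4B was matched through its RefSeq symbol PRP4K, and 1 gene counted in the list is not reported here.

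The members and lists were chosen with earlier results of these data known. Alike genes were the 3 with the smallest summed difference in peak number, ties settled by covered bases. From the list, the 6 with the most peaks and those with peaks in both libraries of a method and none in the other were to be named. Replicate numbers are shared between methods, but the m6A-ORL replicates differ in RNA type, and the labels do not say that a number pairs libraries. Python 3.11.15, NumPy 2.4.6 and SciPy 1.17.1 were used; overlap and grid functions were tested on simulated intervals.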

Additional observations from a re-analysis of the deposited data

How the results depend on the processing

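Of 104 values under alternatives, 83 stayed within the replicate spread or the same count range, 18 moved and 3 changed sign, and the cause was not tested. At equal list length (7661 best-scored peaks each), the m6A-ORL minus MeRIP difference for SRRM2 was 9.5 peaks and 2406 nt (10 and 13 peaks against 2 and 2). The SRRM2 shares overlapped by the other method became 16.5% (m6A-ORL) and 100% (MeRIP). The speckle list then held 11 of 37 genes by m6A-ORL (29.7%, against 19.7% of named coding genes). With a peak in 1 m6A-ORL library sufficing, that list held 34 of 37 (91.9%, against 69.8% of named coding genes). When at least 50% of a peak had to be overlapped, the shares were 31.4% and 55.0% for SRRM2 and 80.4% for MeRIP peaks of SON. Leaving out each library gave a SON difference of -2.5 to 0.5 peaks and -2698 to 386 nt, positive without m6A-ORL replicate 2, and an SRRM1 difference of -59 to 752 nt, negative without that library. The SRRM2 shares then ranged from 35.6% to 53.8% (m6A-ORL) and 43.8% to 80.0% (MeRIP), and those of MeRIP peaks from 40.2% to 100% for SON and from 0% to 100% for SRRM1. For SRRM2, the share of peaks in the long stretch was 92.3% by m6A-ORL and 88.8% by MeRIP with block edges as bounds (59.4% of the span). On the single grid (33.2% of the span, added after seeing the data, and the only bounds for SON) the shares were 64.7% and 43.8%. With edges seen in at least 2 lists the MeRIP share was 100%. Those bounds take in 95.7% of the span, so so high a share is nearly built in. For SRRM1 by m6A-ORL the share in its stretch was 0% when all bases had to lie inside. With the replicate number as a block, the width difference was -90 nt (exact sign-flip p = 0.5, the smallest that 2 pairs allow). Read depth is unknown, so a missing peak may lie below detection.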
